A study of Gallus gallus with 4 samples.

Results

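The condensin peaks of chicken chromosome 18 are described here as they stand in a pair of deposited peak lists, one for the subunit SMC2 and one for the subunit CAP-H. The members are all rows of either list whose first column names chromosome 18, which gave 241 of 6474 SMC2 peaks and 134 of 4369 CAP-H peaks. The cells were DT40, an established chicken B cell lymphoma line, carrying SBP-tagged SMC2 or SBP-tagged CAP-H as a transgene that rescued a knockout of the gene. Both lines were grown in 2 ng/ml doxycycline to shut off the untagged protein and were held in mitosis with 500 ng/ml nocodazole, a drug that blocks spindle assembly. The chromatin was crosslinked in 1% formaldehyde, and DNA attached to the tagged protein was recovered on streptavidin beads and sequenced, an assay named ChAP-seq. The labels name 4 libraries, a pull-down and an input for each subunit, with 1 library in each group, so no value below has a replicate check. The values describe cells under nocodazole alone, each tag in its own cell line, and the share of them in mitosis was not measured here. The labels do not say whether either line is 1 clone.

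Condensin is a ring-shaped complex that folds chromatin into the compact arms of mitotic chromosomes. SMC2 is an ATPase of the ring and belongs to both forms of the complex, condensin I and condensin II. CAP-H is the kleisin that closes the ring of condensin I and is not part of condensin II. Chromosome 18 is one of the microchromosomes, the small chromosomes of birds, taken here as chromosomes 11 to 28. Positions are given in the build galGal4, counted from 1, and each chromosome was measured up to the end of its last peak, which is at 11208203 on chromosome 18. A peak is called shared where it overlaps a peak of the other list by at least 1 bp. Every interval is an exact 95% interval for counting error only. Peak lists carry no reads, so their sequencing depth is unknown. Neighbouring peaks can be pieces of 1 enriched stretch and are not independent, so the intervals are narrower than a repeat of the experiment would give.

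Most condensin peaks of chromosome 18 lay in its last 2.24 Mb. Of 5 equal sections of the chromosome, the last, from 8966563 to 11208203, held 161 of the 241 SMC2 peaks, or 66.8% (60.5 to 72.7), and 77 of the 134 CAP-H peaks, or 57.5% (48.6 to 66.0). The other sections held between 12 and 32 SMC2 peaks and between 5 and 23 CAP-H peaks. The first section had 14 SMC2 and 5 CAP-H peaks, none of them shared. In bins of 1 Mb the highest counts were 89 SMC2 and 40 CAP-H peaks from 10000001 to 11000000, and next 66 SMC2 and 34 CAP-H peaks from 9000001 to 10000000. A smaller cluster, of 32 SMC2 and 21 CAP-H peaks, lay from 4000001 to 5000000. The bin from 7000001 to 8000000 had no SMC2 peak and 2 CAP-H peaks. Without the 5 richest windows of 100 kb, an alternative added once the values were known, the last section held 49.4% (41.3 to 57.4) of the SMC2 peaks and 27.8% (18.3 to 39.1) of the CAP-H peaks. Those 5 windows all lie in this section and were picked for their peak counts, so leaving them out lowers its share by construction. They held 55 of its 77 CAP-H peaks and 83 of its 161 SMC2 peaks.

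**Figure D1:**
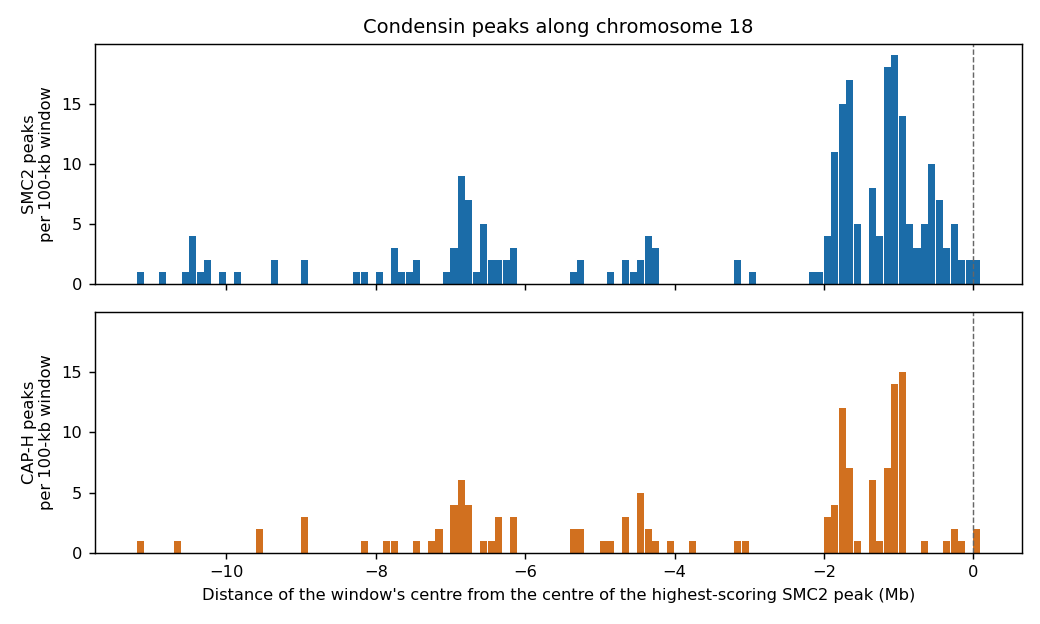
Number of SMC2 peaks (upper panel) and CAP-H peaks (lower panel) in each 100-kb window of chromosome 18, against the distance in Mb of the window's centre from the centre of the SMC2 peak with the highest score (dashed line, which lies near the last listed coordinate). Bars are counts of 1 library each. The tallest bars reach 19 SMC2 and 15 CAP-H peaks, about 1 Mb before the dashed line.

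No other microchromosome had as large a share of its SMC2 peaks in one end. Since different chromosomes share no orientation in the build, the end section with more peaks was taken for each. On chromosome 18 it held 66.8% of SMC2 peaks, against a median of 29.9% and a highest value of 58.1% among the other 17 microchromosomes. For CAP-H it held 57.5%, against a median of 28.6% and a highest value of 57.4%. Both highest values were those of chromosome 11, and for CAP-H the gap to chromosome 18 was far inside its counting interval. For SMC2 the value of chromosome 11 rests on 160 peaks, and no interval was computed for it. With peaks at most 1 kb apart merged, the SMC2 share of chromosome 18 was 60.3% (52.8 to 67.6). Merged shares were not computed for the other microchromosomes, so the lead of chromosome 18 was not checked in that setting. On the chromosomes next in number, 17 and 19, the SMC2 shares were 33.3% and 29.9%.

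**Figure D2:**
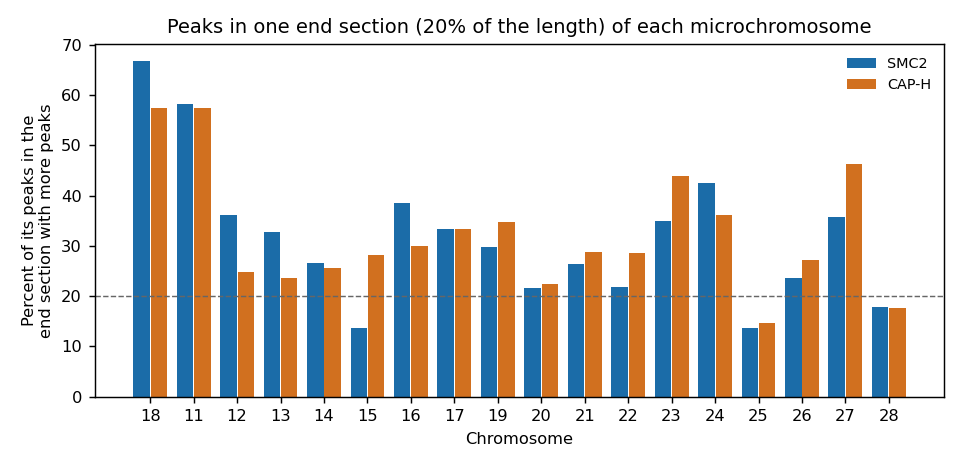
Percent of the peaks of each microchromosome that lie in whichever of its end sections, each 20% of its length, holds more peaks, for SMC2 (blue) and CAP-H (orange), with chromosome 18 at the left. The dashed line marks 20%, the share a section fixed beforehand would hold if peaks were even along the chromosome. Each bar takes the richer end, so even peaks would also tend to give bars above the line, more so where peaks are few. Chromosome 18 stands highest for SMC2, at 66.8%, and level with chromosome 11 for CAP-H.

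Over its whole length, chromosome 18 was in the middle of the microchromosomes in peak density. Per Mb it had 21.5 SMC2 peaks (18.9 to 24.4), against 18.4 (17.7 to 19.04) on the others, and the quotient was 1.17 (1.02 to 1.34). Its CAP-H density was 11.96 peaks per Mb (10.02 to 14.2), against 11.2 (10.7 to 11.8) there, and the quotient was 1.06 (0.886 to 1.27). Chromosome 18 ranked 8th of 18 microchromosomes for SMC2 and 9th for CAP-H. The SMC2 quotient depended on the setting. With peaks at most 1 kb apart merged it was 1.02 (0.874 to 1.19), and against chromosomes 17 and 19 alone it was 1.34 (1.13 to 1.59). With the 5 richest windows left out of every microchromosome, an alternative added with the values known, it was 1.04 (0.882 to 1.23). Leaving them out of chromosome 18 alone, which lowers its density by construction, gave 0.803 (0.680 to 0.943). The number of SMC2 peaks per CAP-H peak was 1.80 (1.45 to 2.24) on chromosome 18 and 1.63 (1.54 to 1.73) on the others. SMC2 peaks covered 411 kb, or 3.67% of chromosome 18, and CAP-H peaks covered 307 kb, or 2.74%, against 2.71% and 2.30% of the other microchromosomes. The copies of each chromosome in these cells were not measured here, so density and copy number cannot be told apart.

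The dense part of chromosome 18 consisted of 5 windows of 100 kb, which were the richest 5 in both lists. The windows from 10000001, 10100001 and 10200001 adjoined each other and had 18, 19 and 14 SMC2 peaks and 7, 14 and 15 CAP-H peaks. The windows from 9400001 and 9500001 had 15 and 17 SMC2 peaks and 12 and 7 CAP-H peaks. These 5 of 113 windows held 83 SMC2 peaks (34.4%, 28.5 to 40.8) and 55 CAP-H peaks (41.0%, 32.6 to 49.9). In each of them, SMC2 peaks covered 32.2 to 46.9 kb and CAP-H peaks 22.3 to 35.6 kb of the 100 kb. The richest outside was the window from 9300001 for SMC2, with 11 peaks, while for CAP-H the windows from 4300001 and 9800001 had 6 each. At the other extreme, 54 windows had no SMC2 peak, 69 had no CAP-H peak and 45 had neither. With windows moved by 50 kb the highest counts were 24 SMC2 and 20 CAP-H peaks.

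Peaks on chromosome 18 were more concentrated than on most other microchromosomes. The richest 5% of its windows held 39.0% of its SMC2 peaks and 45.5% of its CAP-H peaks, against medians of 22.4% and 25.3% on the others. For SMC2, 2 of the other 17 microchromosomes were higher, and for CAP-H 3 were. The number of windows in that 5% grows with the length of a chromosome and was 6 on chromosome 18. The longest stretches without a peak of either list ran from 5072091 to 5878232 (806 kb), from 8261461 to 9031525 (770 kb) and from 2279555 to 2965263 (686 kb). The longest stretch without an SMC2 peak was 1072 kb, from 6961578 to 8033645, and the longest without a CAP-H peak was 1110 kb, from 8135302 to 9245272.

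Nearly 1 in 2 SMC2 peaks on chromosome 18 belonged to a chain, a run of 3 or more peaks of 1 list whose neighbours lay at most 5 kb apart. Of the 241 SMC2 peaks, 117 (48.5%, 42.1 to 55.0) stood in 17 chains, against 32.7% (31.0 to 34.4) on the other microchromosomes and 23.2% over the whole list. Of the 134 CAP-H peaks, 54 (40.3%, 31.9 to 49.1) stood in 9 chains, against 25.5% (23.5 to 27.6) on the others and 18.4% over the whole list. The values for the other microchromosomes are pooled, so the rank of chromosome 18 among them is not known. Lone peaks, with no neighbour of their list within 5 kb, numbered 94 for SMC2 and 54 for CAP-H, and the remaining 30 and 26 peaks stood in pairs. Without the 5 richest windows, again an alternative added once the values were known, 24.1% (17.6 to 31.5) of the SMC2 peaks and 8.86% (3.64 to 17.4) of the CAP-H peaks were in chains. Windows picked for many peaks are where chains form, so leaving them out lowers these shares by construction. They were left out of chromosome 18 alone, so these shares cannot be set against those of the other microchromosomes. Of the 117 SMC2 peaks in chains, 79 lay in those windows, and of the 54 CAP-H peaks in chains, 47 did. Of the chains themselves, 8 of 17 for SMC2 and 2 of 9 for CAP-H had no peak there.

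The longest SMC2 chains lay in, or just before, the dense windows from 9400001 and 9500001. The longest ran from 9459575 to 9550758 with 23 SMC2 peaks, of which 13 were shared, and met 12 CAP-H peaks. Its peaks covered 61.0% of its 91.2 kb. The second, from 9379163 to 9428453, had 14 SMC2 peaks in 49.3 kb, of which 10 were shared. The next 3 chains lay in the dense windows from 10000001 on. The chain from 10162851 to 10190298 had 10 SMC2 peaks, the chain from 10024906 to 10066236 had 9, and the chain from 10233542 to 10261188 had 8. The chain of 9 was the most filled of these 5, with peaks over 89.7% of its 41.3 kb and 8 of its 9 peaks shared. The longest CAP-H chains were in the same region: 8 peaks each from 10195166 to 10223936 and from 10231945 to 10258785, then 7 each from 10027550 to 10062239 and from 10141326 to 10169958. After them came a chain of 6 peaks, which ran from 9484676 to 9517889. All 6 of its peaks and all 7 of the chain from 10027550 were shared.

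**Figure D3:**
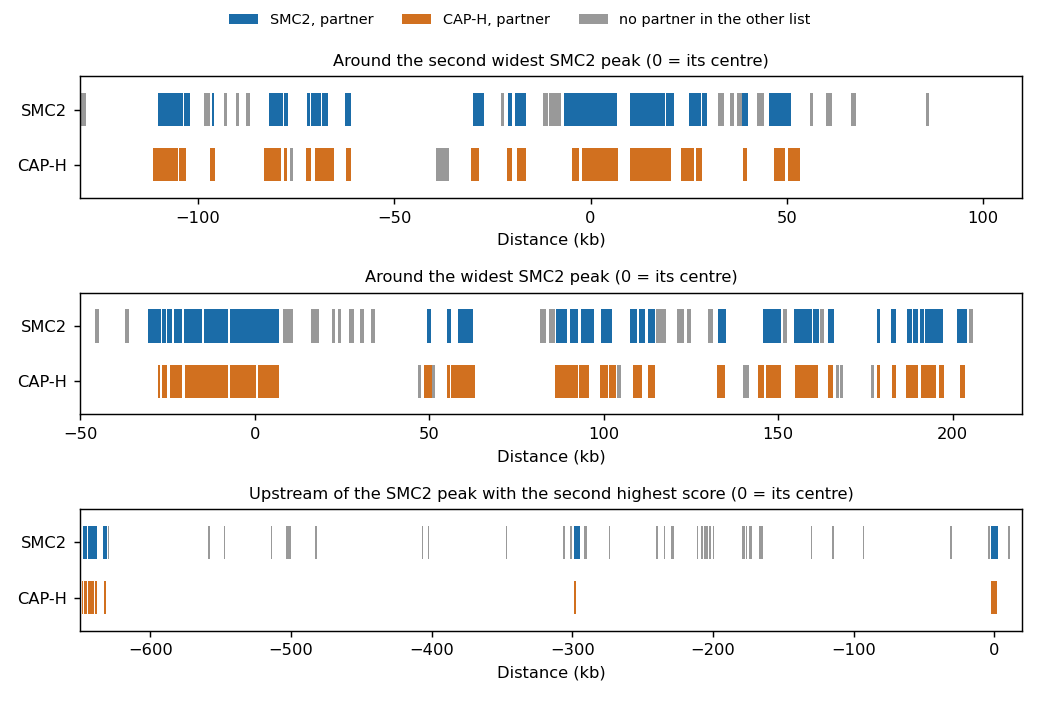
Peaks of the SMC2 list (upper row of each panel) and the CAP-H list (lower row), drawn to scale against the distance in kb from the centre of a named SMC2 peak: the second widest (top), the widest (middle) and the one with the second highest score (bottom). Blue and orange boxes overlap a peak of the other list and grey boxes do not. In the upper panels many blocks of both lists stand over each other, though the middle panel also holds a chain of 7 SMC2 peaks that meets no CAP-H peak. In the bottom panel 33 SMC2 peaks stand beside 1 CAP-H peak between the stretch at the left edge and the peak at 0.

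The lists matched in some chains and parted in others. Of the 17 SMC2 chains, 8 overlapped a CAP-H chain, and 6 met no CAP-H peak at all. Of the 9 CAP-H chains, 7 overlapped an SMC2 chain and 1, from 4330621 to 4339516 with 3 peaks, met no SMC2 peak. Chains were not compared in this way on the other microchromosomes, so these counts are not shown to be particular to chromosome 18. Over the whole lists, single peaks were shared in 31.0% of cases for SMC2 and 42.4% for CAP-H. The longest SMC2 chain without a CAP-H peak had 7 peaks from 10071591 to 10089724, with scores of 61.5 to 102. It began 5.35 kb beyond the chain of 9 SMC2 peaks with 8 shared. Another had 6 peaks from 10679350 to 10690805, with scores of 50.5 to 173.

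Over a stretch of 629 kb the SMC2 peaks stood nearly alone. From 10258786 to 10887954, between CAP-H peaks, there were 33 SMC2 peaks and 1 CAP-H peak, which lay from 10591875 to 10592741 and was shared. The SMC2 scores in that stretch ran from 50.5 to 364 with a median of 83.8, and 20 of the 33 were at or above 74.5, the median of the whole SMC2 list. That median of 83.8 was below the 96.0 of all SMC2 peaks on chromosome 18. It was also below the medians on either side, 107.6 from 8966563 to 10258785 and 96.3 from 10887955 on. A run of 20 consecutive SMC2 peaks without a CAP-H peak, from 10598521 to 10887065, lay inside it. On the other 17 microchromosomes the longest such run had between 5 and 19 SMC2 peaks, with a median of 9, and the 19 were on chromosome 24. In the opposite sense the longest run of CAP-H peaks without an SMC2 peak had 3 on chromosome 18, against a median of 4 on the others. From the start of the last section, 8966563, to 10258785 there were 116 SMC2 and 70 CAP-H peaks, or 1.66 SMC2 peaks per CAP-H peak (1.22 to 2.26). From 10887955 to the last coordinate, beyond the stretch, there were 12 and 6, or 2.0 (0.695 to 6.49). These boundaries were set at CAP-H peaks with the counts in view, so the ratios describe the stretch and test nothing. In the authors' lists a missing peak is one that did not pass the caller's threshold, and the CAP-H signal below that threshold was not tested.

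**Figure D4:**
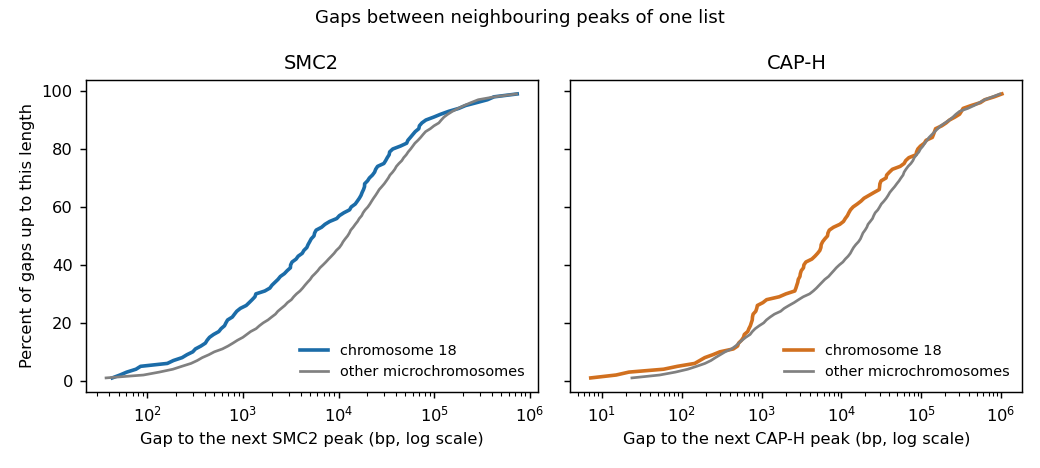
Percent of gaps between neighbouring peaks of one list that are up to a given length (bp, log scale), for SMC2 (left) and CAP-H (right). Coloured lines are chromosome 18 and grey lines the other microchromosomes together. The chromosome 18 lines lie to the left over most of the range, with medians of 5.52 kb for SMC2 and 6.70 kb for CAP-H.

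By median gap, neighbouring peaks stood closer on chromosome 18 than in the pool of the other microchromosomes. Gap values for the others are pooled, so the rank of chromosome 18 among them is not known. The median gap between SMC2 peaks was 5.52 kb, against 12.4 kb on the other microchromosomes, and that between CAP-H peaks was 6.70 kb, against 17.96 kb. Gaps under 1 kb made up 25.8% (20.4 to 31.9) of the SMC2 gaps, against 15.04% (13.8 to 16.4), and 27.1% (19.7 to 35.5) of the CAP-H gaps, against 19.6% (17.7 to 21.5). The intervals were apart for SMC2 and overlapped for CAP-H. Gaps of 100 kb or more were about as frequent as elsewhere, at 9.17% of SMC2 gaps on chromosome 18 and 11.9% on the others, and at 18.8% and 19.7% of CAP-H gaps. With peaks at most 1 kb apart merged, 179 SMC2 and 98 CAP-H peaks were left.

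By number of peaks, more than 1 in 3 SMC2 peaks and more than 1 in 2 CAP-H peaks of chromosome 18 were shared. Of the 241 SMC2 peaks, 90 were shared, or 37.3% (31.2 to 43.8), against 35.3% (33.6 to 37.1) on the other microchromosomes and 31.0% over the whole SMC2 list. Of the 134 CAP-H peaks, 84 were shared, or 62.7% (53.9 to 70.9), against 52.6% (50.3 to 55.0) and 42.4% over the whole CAP-H list. Both pairs of intervals with the other microchromosomes overlapped. By bases, 188 kb lay in peaks of both lists, which was 45.6% of the SMC2 bases and 61.0% of the CAP-H bases. On the other microchromosomes these shares were 37.3% and 43.9%. The CAP-H share was above that of every other microchromosome except 16, which had 96.6%, and chromosome 28 followed closely at 58.9%. The SMC2 share was below those of chromosomes 11 (47.8%), 14 (46.2%) and 19 (50.95%).

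Sharing was uneven along the chromosome. Sharing reached 60.2% (48.9 to 70.8) of the SMC2 peaks in the 5 dense windows, against 25.3% (18.7 to 32.8) outside them. For CAP-H it reached 83.6% (71.2 to 92.2) inside and 48.1% (36.7 to 59.6) outside. More of the sequence is covered in the dense windows, so overlap by position alone is also more frequent there, and how much of the contrast that makes up was not tested. The first 4 Mb had 2 shared SMC2 peaks out of 26, and 2 shared CAP-H peaks out of 12. In the cluster from 4000001 to 5000000 these were 11 of 32 and 10 of 21. The bins just beyond it had fewer peaks. Shared ones were 5 of 6 SMC2 and 6 of 7 CAP-H peaks from 5000001 to 6000000, and 8 of 13 and 6 of 13 from 6000001 to 7000000. Shared SMC2 and CAP-H peaks were 1 of 3 and 1 of 2 from 8000001 to 9000000, and 1 of 6 and 2 of 3 from 11000001 on. The bin from 7000001 to 8000000 had no SMC2 peak and 2 CAP-H peaks, neither of them shared. Sparse bins thus differed in sharing, on few peaks each, and whether sharing goes with density was not tested.

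In 44 pairs 1 SMC2 peak met 1 CAP-H peak and neither met another. These pairs had a median distance of 391.5 bp between midpoints (interquartile range 161 to 762), and 27 of the 44 lay within 500 bp. The pairs were chosen by overlap, which itself limits that distance. The SMC2 peak was the wider in 22 pairs and the CAP-H peak in the other 22, with medians of 1651 and 2110.5 bp. The overlap took up a median of 86.5% of the SMC2 peak and 74.99% of the CAP-H peak. Among all shared peaks, 16 SMC2 peaks overlapped 2 CAP-H peaks each, and 21 CAP-H peaks overlapped 2 or 3 SMC2 peaks. Both lists thus cut some of the same stretches at different points.

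Shared peaks on chromosome 18 were wider than unshared ones, while its median widths were within counting error of those of the other microchromosomes. The median SMC2 width was 1255 bp (order-statistic interval 1145 to 1368), against 1164 bp (1146 to 1184) on the other microchromosomes. For CAP-H it was 1713 bp (1452 to 2003), against 1498 bp (1440 to 1558), and the intervals overlapped in both lists. Shared SMC2 peaks had a median of 1689 bp (1540 to 2017) and unshared ones 1091 bp (1026 to 1145). For CAP-H the medians were 2278 bp (1952 to 2986) for shared and 1172.5 bp (983 to 1366) for unshared peaks. A wide peak meets another more easily by its extent alone, and this part was not tested. Peaks of 5 kb or wider numbered 8 for SMC2 (3.32%, 1.44 to 6.44), against 1.43% (1.03 to 1.92) on the other microchromosomes and 1.47% over the whole list. For CAP-H they numbered 10 (7.46%, 3.64 to 13.3), against 5.33% (4.34 to 6.47) and 3.87%. These intervals overlapped too. All 8 and all 10 were shared, but sharing of such wide peaks on the other microchromosomes was not counted, so this is not shown to be particular to chromosome 18.

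Most of the widest peaks lay in the chains described above. The widest SMC2 peak, 13.8 kb from 10048393 to 10062217, covered a pair of CAP-H peaks of 7.50 kb (10048314 to 10055808) and 5.83 kb (10056406 to 10062239). The second, 13.7 kb from 9482516 to 9496251, likewise met a pair of CAP-H peaks, of which the one from 9487271 to 9496318 was the widest CAP-H peak at 9.05 kb. At 9502585 to 9509855 the order was turned round, since 1 CAP-H peak of 7.27 kb met 3 SMC2 peaks. The other SMC2 peaks among the 5 widest lay from 9499392 to 9506348, from 11199962 to 11206058 and from 10040797 to 10046754. The other CAP-H peaks among the 5 widest lay from 10040146 to 10047712, from 10048314 to 10055808 and from 10111484 to 10118380.

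The median score of SMC2 peaks was higher on chromosome 18 than in the pool of the other microchromosomes. The score is the authors' own value per peak, with no unit given in the file, and the CAP-H list has none. The lowest score of the whole SMC2 list is 50.02, so scores close to it stand at the lower edge of the list. The median was 96.0 (87.0 to 104) on chromosome 18 and 77.5 (75.9 to 79.3) on the other microchromosomes, and chromosome 18 ranked second of 18 after chromosome 16, at 96.2. Scores of at least 500 were reached by 13 of the 241 peaks, or 5.39% (2.90 to 9.05), against 2.24% (1.74 to 2.84) on the other microchromosomes and 2.01% over the whole list. All 13 were shared, as were all 66 such peaks on the other microchromosomes. The median was 133 (107 to 155) in the dense windows of chromosome 18 and 82.7 (75.6 to 92.6) outside them. The interval outside overlapped that of the other microchromosomes, whose own dense windows were not left out. Outside the dense windows 3.80% (1.41 to 8.08) of the peaks scored at least 500. Shared peaks had a median of 162 (128 to 209) and unshared ones 76.9 (71.2 to 83.8). On the other microchromosomes these medians were 109.8 (104 to 117) and 68.7 (67.7 to 70.5). In 3 groups of nearly equal size by score, 56 of the 80 strongest peaks were shared (70%, 58.7 to 79.7), then 23 of 81 (28.4%, 18.9 to 39.5) and 11 of the 80 weakest (13.8%, 7.07 to 23.3). For CAP-H, 3 groups by width gave 41 of the 45 widest, 28 of 44 and 15 of the 45 narrowest. From the strongest group down, the SMC2 median widths were 2119.5, 1143 and 880 bp. A wide peak meets another more easily by its extent alone, and that part was not tested. Such groups were not made on the other microchromosomes, so these trends are not shown to be particular to chromosome 18. Score rose with width over the 241 peaks, with a Spearman rho of 0.85, given as a description because both come from the same reads.

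**Figure D5:**
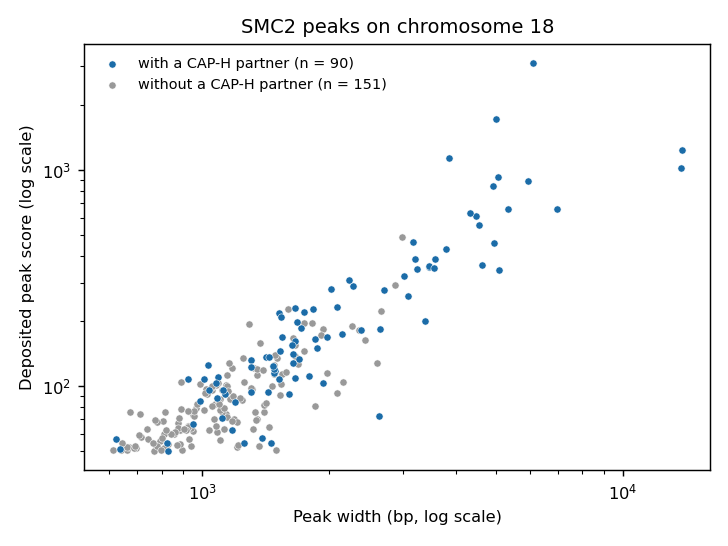
Deposited score against width (bp) of each SMC2 peak on chromosome 18, both axes on a log scale, for the 90 peaks with a CAP-H partner (blue) and the 151 without (grey). The 13 peaks with a score of at least 500 are all blue, and the highest grey point has a score of 489.

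Of the 10 strongest SMC2 peaks, 7 were in chains and 3 were not. The highest score, 3100, belonged to the peak from 11199962 to 11206058, near the last listed coordinate. It is also the highest score of the whole list, where 14 peaks have it, so it gives no order among them. The only SMC2 peak beyond it, from 11207302 to 11208203, lay 1.24 kb on, set that coordinate and had a score of 63.2 and no partner. CAP-H had its last 2 peaks, from 11200843 to 11202729 and from 11203233 to 11206049, inside the strongest SMC2 peak, together over 77.2% of it. The score of 1715 was that of the peak from 10887953 to 10892941, which closes the stretch nearly free of CAP-H and lay 0.887 kb from its nearest SMC2 neighbour. Its CAP-H partner, from 10887955 to 10892240, began 2 bases after it and covered 85.9% of it.

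Another strong peak stood in a poor part of the chromosome. The SMC2 peak from 3448762 to 3452625 had a score of 1135, and the SMC2 peaks on either side lay 246 kb before and 18.7 kb after it. The median score of the 9 SMC2 peaks from 3000001 to 4000000 was 52.3, close to the lowest score of the whole list, 50.02. Its CAP-H partner, from 3449063 to 3453035, covered 92.2% of it. The other 7 of the 10 strongest were in chains. These were the peaks from 10048393 (1237), 9482516 (1012), 9379163 (922), 10040797 (891), 10035218 (841), 10209803 (656) and 9499392 (655). CAP-H peaks covered 77.8% to 100% of each of those 7.

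The 2 strongest SMC2 peaks without a partner lay close to CAP-H peaks, at 0.376 and 1.13 kb. The peak from 10170335 to 10173313 had a score of 489, 406 bp beyond the nearest SMC2 peak, and the peak from 10063365 to 10066236 had 292, at 1.15 kb beyond the widest SMC2 peak. The fourth strongest of them, from 10660358 to 10663010 with a score of 222, was instead 67.6 kb from the nearest CAP-H peak, in a chain with no shared peak. The widest CAP-H peak without a partner, 3.50 kb from 9449948 to 9453446, lay before the longest SMC2 chain. At the low end of the chromosome neither list had a shared peak. The first SMC2 peak ran from 8066 to 9200 with a score of 73.9, and the next lay 317 kb on. The first CAP-H peak ran from 19096 to 21066, and the next lay 546 kb on.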

How the data were processed

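Reads were single-end of 50 bp. Per the submitters' processing notes, the authors aligned them with BWA to the build galGal4, with no version given. The deposited peak lists bear MACS names; its version, control and cutoff were not stated by the labels. The deposited SMC2 list adds the authors' score of each peak, used only within that list. Starts in the files are counted from 0 and were moved to 1-based positions. The 2 deposited profiles around start sites hold no chromosome and were not used here, nor were the inputs.

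Peaks were assigned to windows by their midpoint. Intervals are exact Poisson for densities, exact conditional for ratios, Clopper-Pearson for shares and order-statistic for medians. No p-value was computed, with 1 library per group. Members and lists were chosen with earlier results of these data known. Named regions are the 5 richest windows, 5 longest chains and 5 widest peaks of each list, the 10 SMC2 peaks of highest score, the 3 longest stretches without a peak and the peaks nearest the ends. Others, among them the stretch from 10258786 to 10887954 and the strongest unshared peaks, were named after their values were seen. No galGal4 annotation was used here, so no genes are named. Functions were tested on simulated data. Python 3.11.15, numpy 2.4.6, pandas 2.3.3, scipy 1.17.1 and matplotlib 3.10.9 were used.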

Additional observations from a re-analysis of the deposited data

How the results depend on the processing

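An alternative is given here where its value left the 95% interval of the value in the report, or, for counts and shares of bases, moved by over 1.5 times. Of 44 alternatives, 18 did neither. The SMC2 density relative to the other microchromosomes reversed to 0.803 without the 5 richest windows and was 1.34 against chromosomes 17 and 19 alone; the CAP-H ratio without those windows was 0.656. The richest windows were left out of chromosome 18 alone, which lowers its density by construction; with the 5 richest left out of every microchromosome they were 1.04 (SMC2) and 0.904 (CAP-H). Merging peaks at most 1 kb apart gave 15.97 SMC2 and 8.74 CAP-H peaks per Mb, with 60.3% and 48.0% in the last of 5 sections. Shared SMC2 peaks were 22.0% where at least 50% of each peak was overlapped, 31.1% by midpoint, 48.5% in the upper 50% by score and 25.3% without the richest windows. Shared CAP-H peaks were 39.6%, 53.7% and 48.1% under the first, second and last of these. Peaks in chains were 29.9% of SMC2 and 19.4% of CAP-H with neighbours at most 2 kb apart, 56.0% and 55.2% at 10 kb, and 24.1% and 8.86% without the richest windows. Without those windows 49.4% and 27.8% lay in the last of 5 sections, and the median SMC2 width was 1140.5 bp. Those windows were picked for their peak counts, so the shares in chains and in the last section fall by construction. Shared peaks alone had median widths of 1689 and 2278 bp. With the upper 50% of SMC2 peaks there were 1.22 per CAP-H peak.

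Depth, which sets which weak peaks pass the caller's threshold, is unknown for both lists, so a peak in one list alone is not shown to be absent from the other library.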

Other observations

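Sequences that galGal4 assigns to chromosome 18 without a position were not among the members. They carried a further 16 SMC2 and 10 CAP-H peaks, which have no place along the chromosome.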
